A study of Mus musculus with 162 samples.

Results

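The interleukin-17, interleukin-22 and interleukin-20 axis was followed in mouse cheek skin through 10 genes, 8 encoding cytokines (Il17a, Il17f, Il17c, Il22, Il23a, Il19, Il20 and Il24) and the other two encoding receptor subunits (Il22ra1 and Il20ra). The members were taken by symbol from the 46078 genes of the count tables, and each symbol matched 1 Ensembl gene. The study treated the skin of adult male C57BL/6 mice once daily with MC903 (calcipotriol, a vitamin D analogue that produces an inflamed, itchy skin used as a model of atopic dermatitis) or with its ethanol vehicle, and sequenced RNA from skin, trigeminal ganglia and spinal cord. MC903 was applied at 0.2 mM in 20 µL, and every contrast here set MC903 against ethanol within a group of the same day, genotype and injection. Uninjected wild-type (WT) skin was taken on day 1, hours after the first application (4 MC903 and 4 ethanol libraries), day 2 (3 and 2), day 5 (3 and 3) and day 8 (5 and 6). On day 8 there were also WT mice injected with PBS (2 and 3), WT mice injected with 250 µg of aGr1, an antibody to the neutrophil surface proteins Ly6G and Ly6C (4 and 4), mice lacking the TSLP receptor subunit encoded by Crlf2 (TSLPR KO, 3 and 2) and mice lacking the leukotriene B4 receptor BLT1, encoded by Ltb4r1 (BLT1 KO, 3 and 3). TSLPR KO skin was taken on day 12 as well (4 and 3). The knockout mice were not injected, the PBS mice are the injection control for aGr1, and an antibody to Ly6G and Ly6C also binds cells other than neutrophils.

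IL-17 cytokines act on epithelial cells, where receptors that signal through the adaptor encoded by Traf3ip2 turn on antimicrobial peptides and chemokines that attract neutrophils. IL-23, built from the subunits encoded by Il23a and Il12b, maintains the lymphocytes that make IL-17A, IL-17F and IL-22. IL-22 signals through the receptor chains encoded by Il22ra1 and Il10rb. IL-19, IL-20 and IL-24 share a receptor that pairs the Il20rb chain with Il20ra, and IL-20 and IL-24 also use Il20rb paired with Il22ra1. These receptors activate STAT3 in keratinocytes, the cells in which these cytokines drive thickening of the epidermis.

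The 61 skin libraries used held between 17.4 and 67.3 M (in units of 1000000) counts on genes, and levels are given in CPM, the counts of a gene per 1000000 counts on genes. The 9 skin libraries labelled WT day 12 were left out because marker genes went against their labels. Cyp24a1, the vitamin D degrading enzyme induced by MC903, ranged from 1657 to 6748 CPM in the 31 MC903 libraries and from 0.213 to 31.4 CPM in the 30 ethanol libraries. Crlf2 did not exceed 1.34 CPM in TSLPR KO skin and was at least 2.24 CPM elsewhere, whereas Ltb4r1 stayed detectable in BLT1 KO skin at 2.33 to 15.1 CPM, and which part of it was deleted is not given in the sources used here. The keratinocyte genes Krt5 and Krt14 reached at least 418 and 454 CPM in every library used. On day 2, MC903 replicate 3 stood apart: its 8 sensory neuron and Schwann cell markers summed to 3392 CPM against 81.2 to 98.1 CPM in the other 4 libraries of that day, so its values are given by name. Levels in whole skin cannot tell fewer cells of a type from less RNA per cell, and p-values here measure only the spread between the libraries of a group.

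Il24 and Il19, which encode the IL-20 family cytokines IL-24 and IL-19, rose in the most comparisons. Both passed the test in MC903 skin on days 5 and 8 in WT mice, after PBS and after aGr1, in TSLPR KO mice on days 8 and 12 and in BLT1 KO mice on day 8, and in each of those comparisons the lowest MC903 library exceeded the highest ethanol library. Il23a rose with MC903 in WT and aGr1 skin on day 8, Il20ra fell in 6 comparisons and Il22ra1 fell slightly on day 1. Il17a, Il17c and Il22 were at or near 0 throughout, and Il17f and Il20 passed the test in no comparison. The test was edgeR's quasi-likelihood F test on all genes with at least 10 counts in a comparison, with Benjamini-Hochberg adjustment and a threshold of 0.05.

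The number of members past the threshold is read against the share of all tested genes that passed in either direction. In WT skin it was 1 of 7 tested on day 1 (13% of all genes), 0 of 7 on day 2 (0% of all genes), 3 of 7 on day 5 (14.9%) and 4 of 7 on day 8 (23.4%). On day 8 it was 2 of 7 after PBS (3.99% of all genes), 4 of 8 after aGr1 (32.6%), 3 of 7 in TSLPR KO skin (2.44%) and 3 of 8 in BLT1 KO skin (28.6%). In TSLPR KO skin on day 12 it was 3 of 7 (10% of all genes). A gene needs counts to enter the test, so the members tested are those with reads and not the whole set of 10. On day 2 edgeR called no gene of 24580, although 1191 genes and 2 of the members had an unadjusted p under 0.05, and DESeq2 called 280 genes including Il24.

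**Figure D1:**
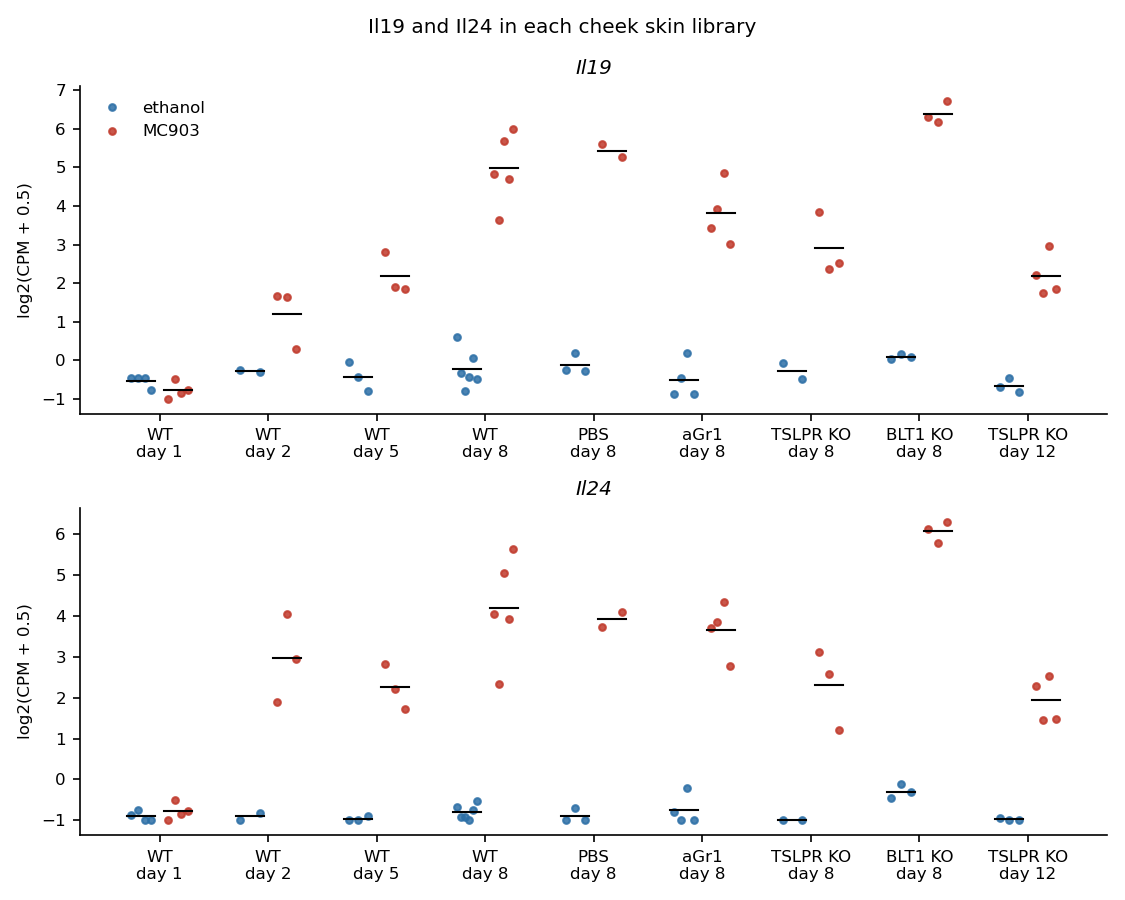
Il19 and Il24 in each of the 61 skin libraries, as log2(CPM + 0.5) on the vertical axis, by comparison, with MC903 and ethanol in separate colours; each point is 1 library and short black bars are group means. On day 1 the treatments overlap, and from day 2 on every MC903 library lies above every ethanol library of its comparison for both genes, with the highest points in BLT1 KO skin (Il19 at 71.5 to 106 CPM).

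Il24 was close to absent without MC903. On day 1 it stood at 0, 0.209, 0.0519 and 0.0874 CPM with MC903 and at 0.046, 0.0913, 0 and 0 CPM with ethanol, which overlap, and its log2 fold change of 1.22 ± 1.08 (SE) had an adjusted p of 0.483. By day 2 the MC903 libraries stood at 16.1, 7.23 and 3.21 CPM (replicates 1 to 3) against 0 and 0.0691 CPM. The groups were thus far apart 1 day later, and the lowest MC903 value was that of replicate 3, the library with the nerve markers. Pooled over libraries, the MC903 to ethanol ratio of CPM was 235, with a 95% counting interval of 64.8 to 1945 that covers counting error only. In edgeR, which called no gene on that day, the log2 fold change was 7.73 ± 1.35 with an adjusted p of 0.329, whereas the adjusted p was 7.93e-07 in DESeq2, 0.00037 in 1 fit over the WT days 1, 2, 5 and 8 and 0.0444 without replicate 3.

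On day 5 Il24 reached 6.54, 4.13 and 2.83 CPM with MC903 and 0, 0 and 0.0361 CPM with ethanol. The ethanol group held 1 read in all, so the pooled ratio of 372 carries a counting interval of 66.3 to 14732, and the adjusted p was 0.000686. That read was in replicate 3. On day 8 the WT libraries formed 2 sets, here called cohorts A and B, told apart only by the style of their sample titles. The titles of cohort A carry a bracketed library tag and those of cohort B do not. The labels do not say what separates the sets, which were fitted as a term. Cohort A gave 16.1, 4.57 and 32.6 CPM with MC903 and cohort B 14.7 and 49.1 CPM (mean 23.4 ± 17.5, SD, n = 5), against a lowest, median and highest ethanol value of 0, 0.0611 and 0.188 CPM (n = 6). Every MC903 library of both cohorts was above every ethanol library, and the spread among treated libraries was wide in each cohort. Il24 had a log2 fold change of 8.32 ± 0.67 (adjusted p = 2.52e-06 in edgeR), 8.22 within cohort A (adjusted p = 0.00131) and 8.36 within cohort B (adjusted p = 0.00011).

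The rise of Il24 was also present in the other day 8 groups. After PBS it was 12.9 and 16.7 CPM with MC903 and 0, 0.119 and 0 CPM with ethanol, a pooled ratio of 398 (136 to 1936, adjusted p = 0.00266 in edgeR) that rests on the ethanol reads of replicate 2 alone. After aGr1 it was 12.5, 14, 19.9 and 6.29 CPM against 0.0772, 0, 0.362 and 0 CPM (log2 fold change 6.62 ± 0.71, adjusted p = 0.000204 in edgeR, and 8.30 without ethanol replicate 3). The aGr1 MC903 values lay within the range of the uninjected WT libraries, and the test of the difference in MC903 effect between aGr1 and WT skin gave -1.66 ± 1.31 on the log2 scale (adjusted p = 0.523 in edgeR), and 0.05 without aGr1 ethanol replicate 3. Against PBS skin the difference was -1.77 (adjusted p = 0.7).

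TSLPR KO skin on day 8 held 8.2, 5.51 and 1.82 CPM of Il24 with MC903 and 0 in both ethanol libraries. The rise was at least 49.9-fold against 3 counts in each ethanol library, with an adjusted p of 0.00601 in edgeR that became 0.0592 without MC903 replicate 1. On day 12 TSLPR KO skin held 4.41, 2.26, 5.24 and 2.29 CPM with MC903 and 0.0225, 0 and 0 CPM with ethanol, a pooled ratio of 465 (83.1 to 18379, adjusted p = 0.000494 in edgeR) that rests on 1 ethanol read, in replicate 1. The TSLPR KO means of 5.18 ± 3.2 CPM on day 8 and 3.55 ± 1.51 CPM on day 12 were below the WT day 8 mean, but the MC903 effect on day 8 was not shown to differ from that in WT skin (difference 2.06 ± 3.13 on the log2 scale, adjusted p = 0.83 in edgeR). The fitted difference is imprecise because no read of Il24 was counted in TSLPR KO ethanol skin.

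BLT1 KO skin had the highest Il24 levels of the skin libraries used, at 70.1, 54.5 and 78 CPM with MC903 against 0.223, 0.422 and 0.306 CPM with ethanol. The 3 treated libraries lay above every other library used here, and the ethanol libraries were above most ethanol libraries of the other groups as well. BLT1 KO libraries were also deeper than nearly all others, with 49.1 to 67.3 M counts against 17.4 to 49.6 M in the other groups, so for levels the genotype and the set of libraries cannot be told apart. This was a 210-fold rise (log2 fold change 7.71 ± 0.27, adjusted p = 2.43e-06 in edgeR). On that ratio scale the BLT1 KO effect was not shown to differ from the WT one (difference -0.56 ± 0.93, adjusted p = 0.792 in edgeR).

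Il19 was detectable in ethanol skin and rose with MC903 from day 5 on. On day 1 it was at 0, 0.209, 0.0519 and 0.0874 CPM with MC903 and at 0.23, 0.228, 0.225 and 0.0869 CPM with ethanol (log2 fold change -1.09 ± 0.71, adjusted p = 0.333 in edgeR). On day 2 it was at 2.63, 0.719 and 2.65 CPM with MC903 and at 0.332 and 0.311 CPM with ethanol (2.53 ± 0.76, adjusted p = 0.837). The groups overlapped on day 1 and no longer did on day 2. Day 5 gave 6.54, 3.24 and 3.1 CPM against 0.46, 0.241 and 0.0723 CPM, a 15.6-fold rise (log2 fold change 3.96 ± 0.54, adjusted p = 0.00348 in edgeR), and 4.62 without ethanol replicate 1.

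WT day 8 had larger Il19 values. Cohort A held 28.1, 12 and 50.9 CPM and cohort B 25.6 and 63.4 CPM with MC903 (mean 36 ± 20.7, SD, n = 5), against a lowest, median and highest ethanol value of 0.0757, 0.264 and 1.01 CPM (mean 0.395 ± 0.337, n = 6). The lowest treated library was over the highest ethanol library in both cohorts. Il19 rose 94.0-fold (log2 fold change 6.55 ± 0.56, adjusted p = 4e-06 in edgeR), with 6.08 in cohort A (adjusted p = 0.00225) and 7.13 in cohort B (adjusted p = 3.12e-05). It was 7.19 without the ethanol library at 1.01 CPM.

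The same separation of Il19 held in the injected and knockout mice. After PBS the values were 48.2 and 37.9 CPM against 0.344, 0.635 and 0.316 CPM, a 101-fold rise (6.66 ± 0.34, adjusted p = 0.000893 in edgeR). After aGr1 they were 10.2, 14.7, 28.6 and 7.63 CPM against 0.0386, 0.219, 0.633 and 0.0435 CPM, a 53.3-fold rise (5.74 ± 0.69, adjusted p = 0.00038). Without ethanol replicate 3 the aGr1 log2 fold change of Il19 was 6.68. The aGr1 MC903 libraries overlapped the WT range and reached below it, with no difference in effect past the threshold (-0.80 ± 1.03, adjusted p = 0.723, and 0.13 without that ethanol library). All 4 were below both MC903 libraries of the PBS mice, the injection control, and the difference in effect from PBS skin was -0.88 on the log2 scale (adjusted p = 0.783).

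TSLPR KO skin held 13.8, 4.65 and 5.26 CPM of Il19 on day 8 against 0.449 and 0.208 CPM, a 23.7-fold rise (log2 fold change 4.57 ± 0.62, adjusted p = 0.0058 in edgeR). It was 3.95 without MC903 replicate 1 and 5.16 without ethanol replicate 1. On day 12 it held 4.12, 2.84, 7.34 and 3.07 CPM against 0.112, 0.227 and 0.0639 CPM, a 28.9-fold rise (4.85 ± 0.49, adjusted p = 0.000657). The mean with MC903 was 7.9 ± 5.1 CPM on day 8 and 4.34 ± 2.08 CPM on day 12, below the 36 CPM of WT day 8. The difference in effect between TSLPR KO and WT skin on day 8 was -1.95 ± 1.11 on the log2 scale (adjusted p = 0.482). BLT1 KO skin again had the highest values, 78.3, 71.5 and 106 CPM against 0.52, 0.623 and 0.55 CPM, a 148-fold rise (7.21 ± 0.23, adjusted p = 2.37e-06), and its effect was not shown to differ from that in WT skin (0.69 ± 0.76, adjusted p = 0.654).

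Il20 is the gene between these on the chromosome and passed the test in no comparison. On GRCm38, Il24 (chr1:130882074-130887454), Il20 (chr1:130906985-130911451) and Il19 (chr1:130932656-130940115) are all on the minus strand and are the only 3 genes of the annotation in the 58042 bases from the start of Il24 to the end of Il19. Over the 18 group means of log2(CPM + 0.5), Pearson's r was 0.963 between Il19 and Il24, 0.18 between Il19 and Il20 and 0.109 between Il24 and Il20. These are descriptions, and the MC903 groups share the treatment.

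On WT day 8, Il20, which encodes IL-20, was at 0.563, 0.374, 2.58, 1.16 and 0.213 CPM with MC903 and from 0.145 to 0.832 CPM with ethanol, with overlap (log2 fold change 1.06 ± 0.63, adjusted p = 0.251 in edgeR). In BLT1 KO skin it was at 1.61, 1.59 and 1.86 CPM with MC903 and at 1.28, 5.07 and 1.41 CPM with ethanol (-0.63 ± 0.52, adjusted p = 0.41). The single highest Il20 value was thus in an ethanol library. On day 2 its MC903 values of 0.56, 0 and 0.0706 CPM were below both ethanol values, 0.775 and 1.04 CPM, with an adjusted p of 0.898. Over the 9 comparisons the adjusted p of Il20 ran from 0.251 to 0.958.

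The promoter windows of Il19 and Il20, 300 bases from 250 before to 50 after the RefSeq start on GRCm38.p6, are shown because Il19 passed the test and its neighbour did not. A difference between these genes was not itself tested. They are written 5′ to 3′ on the minus strand, Il19 at chr1:130940066-130940365 and Il20 at chr1:130911247-130911546, and capitals mark the matches to the motifs searched.
Il19: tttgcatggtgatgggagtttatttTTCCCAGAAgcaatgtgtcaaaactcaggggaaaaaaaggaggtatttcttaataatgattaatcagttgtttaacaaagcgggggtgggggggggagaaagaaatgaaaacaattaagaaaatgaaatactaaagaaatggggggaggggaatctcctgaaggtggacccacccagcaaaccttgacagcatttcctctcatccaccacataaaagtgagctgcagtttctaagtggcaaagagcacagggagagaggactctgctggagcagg
Il20: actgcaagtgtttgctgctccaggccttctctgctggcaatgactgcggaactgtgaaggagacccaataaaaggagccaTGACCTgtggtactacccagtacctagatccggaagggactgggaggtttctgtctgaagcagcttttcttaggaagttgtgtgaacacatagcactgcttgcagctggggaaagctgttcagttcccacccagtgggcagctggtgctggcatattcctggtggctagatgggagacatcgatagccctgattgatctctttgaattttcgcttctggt
On both strands, windows were searched for TTCNNNGAA (STAT), TGANTCA (AP-1), AGGTCA (a nuclear receptor unit) and an NF-kB motif. The AGGTCA unit is only a part of the element read by the vitamin D receptor, and whole elements were not searched for. Il19 had a STAT match at -225 from the start and no other, and Il20 had a nuclear receptor unit, read as TGACCT on this strand, at -170. Of 32851 RefSeq promoter windows of that length, 8.3% held the STAT motif, 7.81% the AP-1 motif, 1.63% the NF-kB motif and 16.3% the nuclear receptor unit. A match is a run of letters and not a site shown to be used. Windows were found for 8 of the 10 members, and none for Il23a and Il24.

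Il23a encodes the p19 subunit of IL-23 and was low, above 3 counts in 38 of the 61 libraries. On WT day 8 it was at 0.296, 0.748 and 0.693 CPM in cohort A and 0.376 and 0.334 CPM in cohort B with MC903, and the ethanol libraries had a lowest, median and highest value of 0, 0.0387 and 0.153 CPM. All 5 treated libraries were above all 6 ethanol libraries. The log2 fold change of Il23a was 3.35 ± 0.61 (10.2-fold, adjusted p = 0.00177 in edgeR), 2.73 within cohort A (adjusted p = 0.0207) and 4.80 within cohort B (adjusted p = 0.0765).

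After aGr1, Il23a was at 0.64, 0.277, 0.685 and 0.347 CPM with MC903 and at 0, 0, 0.0452 and 0.087 CPM with ethanol, which again did not overlap. The ethanol group held 3 reads in all, the pooled ratio was 15.7 (5.01 to 79.1) and the log2 fold change 3.41 ± 0.77 (adjusted p = 0.00899 in edgeR), 4.47 without ethanol replicate 4. The effect after aGr1 did not differ past the threshold from that in WT skin (0.15 ± 1.08, adjusted p = 0.979).

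In BLT1 KO and PBS skin a single ethanol library decided the call on Il23a. In BLT1 KO skin it was at 0.842, 0.671 and 1.18 CPM with MC903 and at 0, 0.342 and 0 CPM with ethanol, a log2 fold change of 2.98 ± 1.31 with an adjusted p of 0.128 that became 0.00303 without ethanol replicate 2. After PBS it was at 0.62 and 0.485 CPM against 0, 0.436 and 0 CPM (1.96 ± 1.24, adjusted p = 0.478, and 0.0205 without ethanol replicate 2). The treated libraries were above the ethanol libraries in both groups, and the ethanol library with reads was close to the treated range after PBS. In TSLPR KO skin on day 8 it was at 1.18, 0.89 and 0.309 CPM against 0.657 and 0.0693 CPM (1.15 ± 0.88, adjusted p = 0.599), and on day 12 the log2 fold change was 1.47 ± 0.56 (adjusted p = 0.136).

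Before day 8 there was no call on Il23a in WT skin. The log2 fold change was -0.19 ± 0.93 on day 1, 1.20 ± 0.94 on day 2 and 1.09 ± 0.97 on day 5, with adjusted p between 0.496 and 0.915 in edgeR. Among the day 2 MC903 libraries it was 0.775 CPM in replicate 1, 0.18 in replicate 2 and 0.353 in replicate 3, against 0.185 and 0.173 CPM with ethanol, so the groups overlapped.

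**Figure D2:**
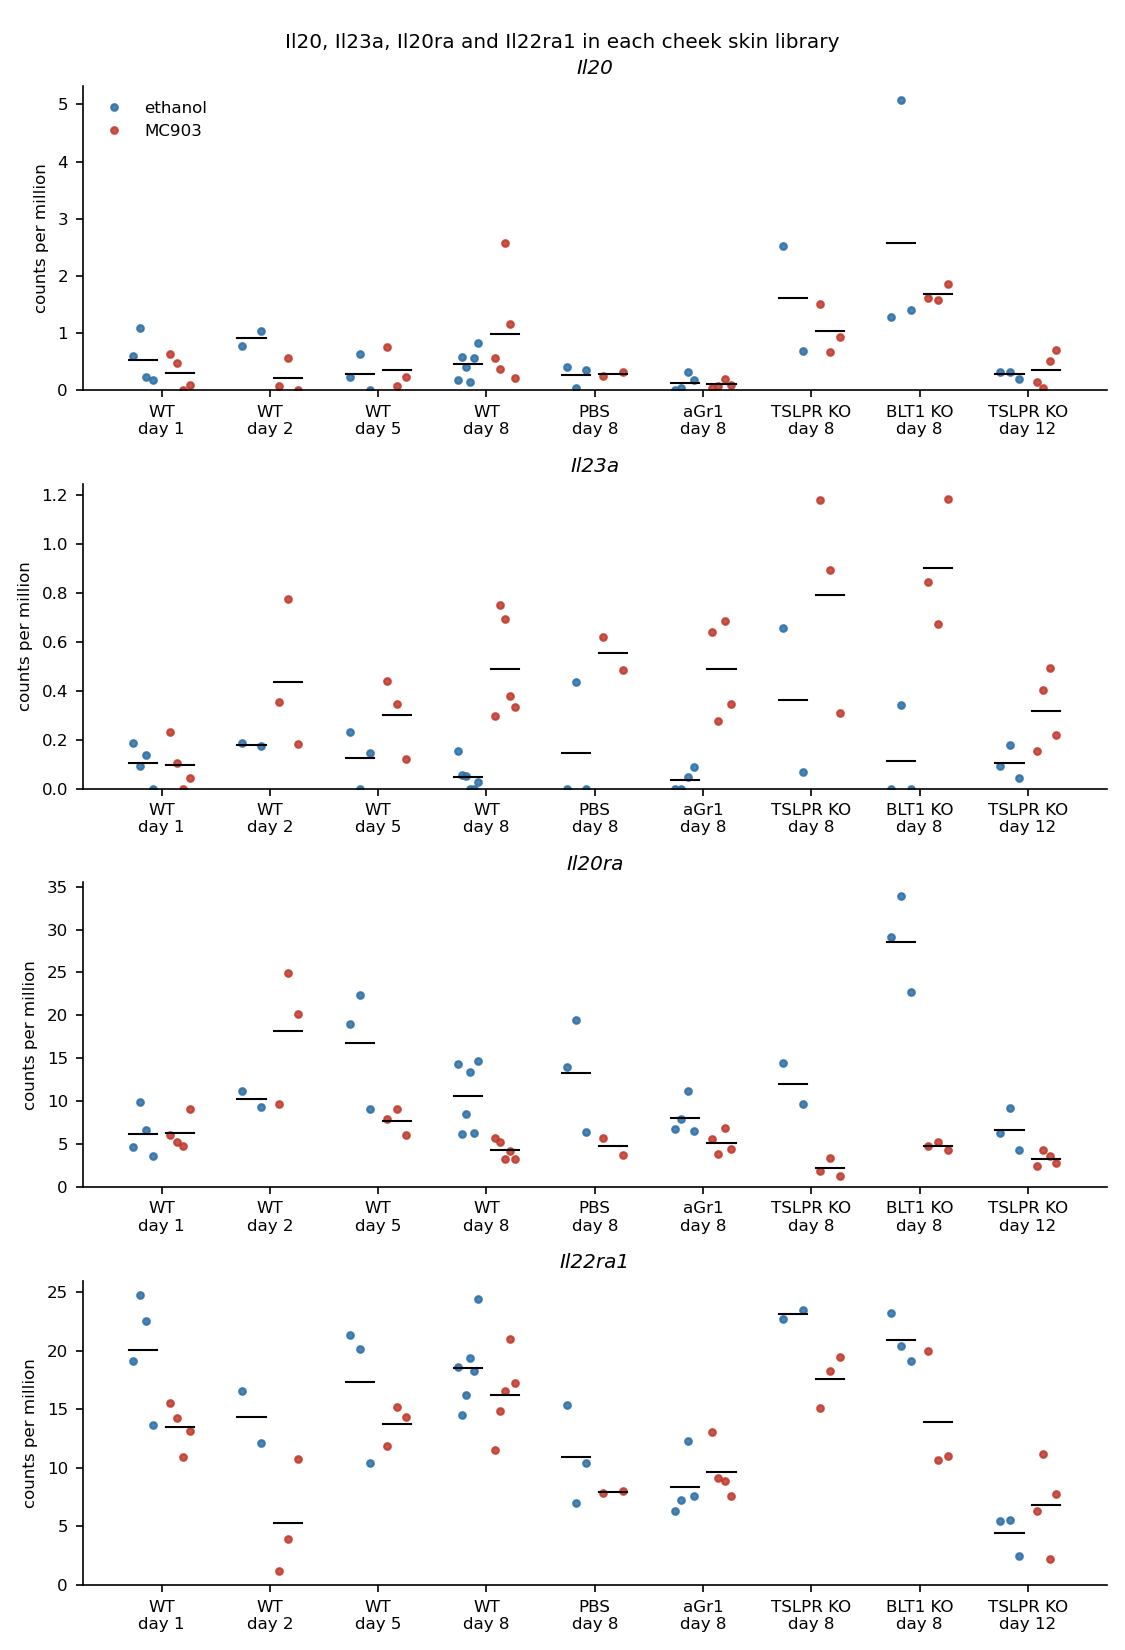
Il20, Il23a, Il20ra and Il22ra1 in each of the 61 skin libraries, in CPM on a linear vertical axis, by comparison, with MC903 and ethanol in separate colours; points are libraries and short black bars are group means. Il23a is under 1.2 CPM everywhere, and Il20ra is lower with MC903 in every library of WT day 8 (3.19 to 5.74 CPM) than in any ethanol library of that day (6.12 to 14.7 CPM).

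Il20ra, the receptor chain that pairs with Il20rb to bind IL-19, IL-20 and IL-24, went the other way. It fell in MC903 skin on WT days 5 and 8, after aGr1, in TSLPR KO mice on days 8 and 12 and in BLT1 KO mice. On day 1 it was at 6.08, 5.18, 4.73 and 9.09 CPM with MC903 and at 4.6, 9.86, 6.63 and 3.56 CPM with ethanol, which overlap. On day 2 the MC903 libraries were at 24.9, 20.2 and, in replicate 3, 9.61 CPM, against 11.2 and 9.26 CPM with ethanol (log2 fold change 0.80 ± 0.50, adjusted p = 0.898 in edgeR). The library with the nerve markers was the lowest of the treated ones, and without a call the day 2 groups cannot be ordered.

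By day 5 Il20ra was at 7.86, 9.13 and 6.05 CPM with MC903 and at 19, 22.3 and 9.07 CPM with ethanol. The highest treated library was just above the lowest ethanol library, and the log2 fold change of -1.16 ± 0.26 (adjusted p = 0.0241 in edgeR) lost its call without ethanol replicate 1 or 2 or MC903 replicate 1 or 3 (adjusted p from 0.0709 to 0.0851). On WT day 8 it was at 5.74, 5.2, 3.27, 4.14 and 3.19 CPM (mean 4.31 ± 1.14, SD, n = 5) with MC903, against a lowest, median and highest ethanol value of 6.12, 10.9 and 14.7 CPM (mean 10.5 ± 4.03, n = 6), with no overlap. Il20ra thus had a day 8 log2 fold change of -1.27 ± 0.27 (adjusted p = 0.00505), -1.02 within cohort A (adjusted p = 0.0714) and -1.61 within cohort B (adjusted p = 0.019).

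In BLT1 KO skin Il20ra fell from 29.1, 33.9 and 22.7 CPM with ethanol (mean 28.6 ± 5.59, SD, n = 3) to 4.72, 5.24 and 4.34 CPM with MC903 (mean 4.77 ± 0.455), a log2 fold change of -2.61 ± 0.19 (adjusted p = 3.83e-05 in edgeR). The treated libraries were at the WT day 8 level, while the ethanol libraries were above every WT ethanol library of that day. The difference in effect from WT skin was -1.30 ± 0.40 on the log2 scale, with an unadjusted p of 0.00482 and an adjusted p of 0.0603 in edgeR. That adjusted p was 0.0163 in DESeq2 and 0.0483 without the filter on low counts, so the call depended on the setting.

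After aGr1 Il20ra was at 5.62, 3.79, 6.85 and 4.36 CPM with MC903 and at 6.72, 7.86, 11.1 and 6.48 CPM with ethanol, 1 treated library being above 2 ethanol libraries, and a log2 fold change of -1.0 ± 0.21 (adjusted p = 0.00686 in edgeR). After PBS it was at 5.73 and 3.72 CPM against 13.9, 19.4 and 6.36 CPM, with no overlap and no call (-1.46 ± 0.49, adjusted p = 0.189, and 0.0468 in DESeq2). TSLPR KO skin held 1.8, 3.33 and 1.27 CPM with MC903 and 14.4 and 9.6 CPM with ethanol on day 8 (-2.44 ± 0.41, adjusted p = 0.0156). Here the treated and ethanol libraries lay far apart, and the adjusted p became 0.116 without MC903 replicate 1 and 0.0703 without ethanol replicate 1.

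On day 12 TSLPR KO skin held 2.41, 4.29, 3.6 and 2.83 CPM of Il20ra with MC903 and 6.32, 9.23 and 4.3 CPM with ethanol, groups that nearly touched. This gave a log2 fold change of -1.17 ± 0.23 (adjusted p = 0.0151 in edgeR), and the call was lost, with adjusted p from 0.0528 to 0.0608, without MC903 replicate 4 or ethanol replicate 1 or 2. The effect on Il20ra did not differ past the threshold between aGr1 and WT skin (0.28 ± 0.38, adjusted p = 0.74) or between TSLPR KO and WT skin on day 8 (-1.14 ± 0.52, adjusted p = 0.377).

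The promoter window of Il20ra on GRCm38.p6 (RefSeq, plus strand, chr10:19712337-19712636) is shown for the receptor gene that fell, with its single motif match in capitals.
Il20ra: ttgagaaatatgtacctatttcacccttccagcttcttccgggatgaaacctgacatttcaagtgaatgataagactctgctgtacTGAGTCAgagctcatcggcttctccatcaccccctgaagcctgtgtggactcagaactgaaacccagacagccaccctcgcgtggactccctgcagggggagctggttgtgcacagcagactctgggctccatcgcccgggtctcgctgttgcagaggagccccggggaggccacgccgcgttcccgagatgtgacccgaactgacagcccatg
The capitals mark TGAGTCA, an AP-1 match at -164 from the start. No other of the motifs searched was found in this window.

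Il22ra1, the receptor chain shared by IL-22, IL-20 and IL-24, was detected in every library and moved little. On day 1 it was at 15.5, 14.2, 11 and 13.1 CPM with MC903 and at 19.1, 24.8, 22.5 and 13.7 CPM with ethanol (log2 fold change -0.60 ± 0.13, adjusted p = 0.0164 in edgeR), with 1 ethanol library inside the treated range. The call on Il22ra1 was lost without ethanol replicate 3 (adjusted p = 0.053) and in 1 fit over the WT days (0.387). On day 2 it was at 3.96, 10.7 and, in replicate 3, 1.2 CPM against 16.6 and 12.1 CPM (-1.45 ± 0.84, adjusted p = 0.898). The lowest value in any skin library used was thus in the library with the nerve markers.

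On WT day 8 Il22ra1 ranged from 11.5 to 21 CPM with MC903 (mean 16.2 ± 3.47, SD, n = 5) and from 14.5 to 24.4 CPM with ethanol (mean 18.6 ± 3.39, n = 6), a log2 fold change of -0.15 ± 0.12 (adjusted p = 0.384 in edgeR). In BLT1 KO skin it was at 20, 10.7 and 11 CPM with MC903 and at 23.2, 20.4 and 19.1 CPM with ethanol (-0.64 ± 0.22, adjusted p = 0.0602). The first treated library lay inside the ethanol range, and without it the adjusted p was 0.00809. The difference in effect from WT skin was -0.44 ± 0.23 (adjusted p = 0.297).

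Levels can be compared between genes only per kilobase of exon. On WT day 8 with ethanol the mean level was 7.22 CPM per kb for Il22ra1 and 4.34 for Il20ra, followed by 0.383 for Il20, 0.343 for Il19, 0.261 for Il17f, 0.0550 for Il24 and 0.0211 for Il23a. With MC903 it was 31.3 CPM per kb for Il19 and 16.9 for Il24, above 6.31 for Il22ra1 and 1.78 for Il20ra, and then 0.825 for Il20, 0.256 for Il17f and 0.218 for Il23a. In ethanol skin the receptor genes were thus the highest of the set, and in MC903 skin Il19 and Il24 were. The SDs of Il19 and Il24 in MC903 skin overlapped, but within each WT day 8 MC903 library Il19 exceeded Il24 in CPM. Its exon length is the shorter, 1149 against 1386 bases, so Il19 was higher per kb in each of them. In ethanol skin the SDs of Il20 and Il19 overlapped and their order varied between libraries, so that order is not fixed.

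**Figure D3:**
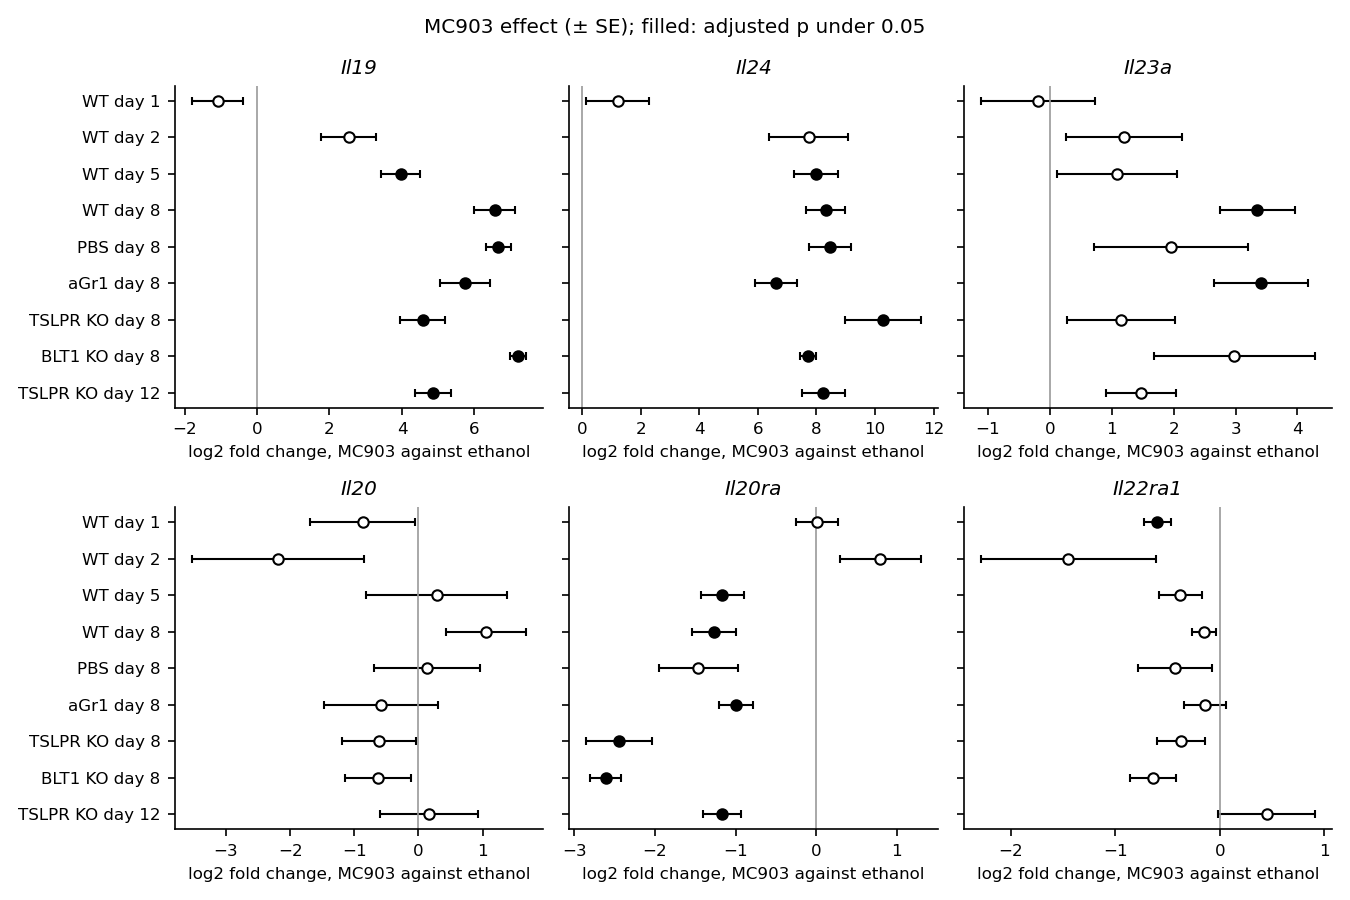
Fitted log2 fold changes of MC903 against ethanol for the tested members (horizontal axis, with SE bars) in each of the 9 comparisons, from edgeR; filled points passed the adjusted p threshold of 0.05 and open points did not. Il24 and Il19 are filled from WT day 5 on in every group, with log2 fold changes of 3.96 to 8.46 outside the imprecise TSLPR KO day 8 value of Il24, and Il20ra is filled on the negative side in 6 comparisons.

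The type 17 cytokine genes Il17a and Il22 were at the floor. Il17a, which encodes IL-17A, had 0 counts in 59 of the 61 libraries and at most 3 counts, in 1 TSLPR KO MC903 library of day 8. Il22, which encodes IL-22, likewise had 0 counts in 59 libraries and at most 3. The nearly identical gene Iltifb (chr10:118289629-118295038) had 3 counts or fewer in 60 libraries and at most 4, and reads shared between the copies may not have been counted for either, so the level of Il22 is uncertain. At this depth 3 counts correspond to 0.172 CPM in the shallowest library, and a difference between groups under that limit was not detectable.

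Il17c, which encodes IL-17C made by epithelial cells, had 3 counts or fewer in 58 libraries. The exceptions were a BLT1 KO ethanol library (16 counts), a TSLPR KO day 8 MC903 library (9 counts) and a WT day 8 MC903 library (6 counts), so both treatments were among them. Il17f, which encodes IL-17F, was above 3 counts in all 61 libraries, with 6 to 39 counts. Its median was 0.564 CPM with MC903 and 0.525 CPM with ethanol, and its adjusted p ran from 0.261 to 0.991 over the 9 comparisons. Trigeminal ganglia gave 0.707 and 0.717 CPM and spinal cord 1.17 and 0.773 CPM, medians above those of skin.

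The differences in MC903 effect between conditions share the WT day 8 libraries. None of the 8 members tested passed for aGr1 against WT (4.56% of all genes passed), TSLPR KO against WT (0.177%) or BLT1 KO against WT (6.95%). At an unadjusted p under 0.05 there were 0, 1 and 2 members, in that order, and with DESeq2 Il20ra passed for BLT1 KO against WT. The fold changes of Il23a in these tests were -2.13 ± 1.03 for TSLPR KO (adjusted p = 0.406) and -0.35 ± 1.18 for BLT1 KO (adjusted p = 0.926).

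The rest of the pathway was read from 4 lists of genes. Of 9 genes of the IL-17 family, its receptors and its adaptor, 3 rose and 1 fell on WT day 8 (of all genes tested 12.2% rose and 11.2% fell), with a median log2 fold change of 0.15 against -0.03 over all genes tested. Il17rc (1.43 ± 0.13, adjusted p = 1.01e-05 in edgeR) and Il17ra (0.69 ± 0.11, adjusted p = 0.000667), the receptor chains for IL-17A and IL-17F, rose, as did the adaptor gene Traf3ip2 (0.46 ± 0.13, adjusted p = 0.0225). Il17rd, a receptor chain of the same family, fell (-0.70 ± 0.10, adjusted p = 0.000372). Il17rc also rose after aGr1 (0.81 ± 0.18), in BLT1 KO skin (0.87 ± 0.16) and in TSLPR KO skin on day 12 (0.90 ± 0.19). After aGr1, 2 genes of the list rose and 1 fell (15.1% and 17.5% of all genes). In BLT1 KO skin 2 rose and 3 fell, Il17rd among the latter (-0.87 ± 0.16), where 28.6% of all genes passed in either direction. In TSLPR KO skin on day 12, 1 rose (5.41%) and 0 fell. No gene of the list passed on days 2 and 5, after PBS or in TSLPR KO skin on day 8.

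Of 10 genes for the IL-23 partner and receptor and for type 17 lymphocytes, 2 rose and 4 fell on WT day 8 (12.2% of all genes rose and 11.2% fell). Il12rb1, a chain of the IL-12 and IL-23 receptors, rose (2.92 ± 0.49, adjusted p = 0.00107 in edgeR). Sox13, which encodes an SRY-box transcription factor, fell (-0.65 ± 0.15, adjusted p = 0.00912 in edgeR), and it fell as well after aGr1 (-0.73 ± 0.20). Genes that passed in this list were mostly lower: 5 fell and 0 rose on day 1 (7.47% of all genes fell), 2 fell and 0 rose on day 5 (6.78%) and 4 fell and 0 rose after aGr1 (17.5%). The effect on Il12rb1 differed between aGr1 and WT skin (-3.53 ± 0.69, adjusted p = 0.00852), and 2 of the 10 genes passed in that test (4.56% of all genes passed). T cell markers moved with it: 5 of 8 were lower in the same test, with a median log2 difference of -2.34 (all genes 0.02). The aGr1 ethanol libraries were uneven, with T cell markers summing to 120, 79, 43.3 and 22.1 CPM and Il12rb1 at 1.27, 0.951, 0.768 and 0.174 CPM, while the aGr1 MC903 libraries held 44.3 to 52 CPM of the markers. Their part in the result was not tested. In PBS skin, the injection control, Il12rb1 was at 1.29 and 1.33 CPM with MC903 and at 0.619, 0.595 and 0.119 CPM with ethanol. Uninjected WT ethanol skin of day 8 held 0.0268 to 0.214 CPM. With PBS skin as the control, 62 genes in all passed the test of a difference in effect, against 1268 with WT skin. The difference of Il12rb1 from PBS skin is not reported here.

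The third list held 9 partner chains and signalling genes of the IL-22 and IL-20 receptors, of which 6 rose and 2 fell on WT day 8 (12.2% of all genes rose and 11.2% fell). Stat3, the transcription factor these receptors activate (1.19 ± 0.11, adjusted p = 1.14e-05 in edgeR), and the feedback inhibitor genes Socs3 (2.06 ± 0.22, adjusted p = 2.36e-05) and Socs1 (2.31 ± 0.37, adjusted p = 0.000672) rose. Socs3 and Stat3 passed as well on day 5, after PBS, after aGr1, in BLT1 KO skin and in TSLPR KO skin on day 12. Many cytokines outside this axis also signal through Stat3 and induce the Socs genes.

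Il22ra2, the gene for a soluble receptor that binds and blocks IL-22, fell in 8 of the 9 comparisons. Its log2 fold change was -1.77 ± 0.29 on day 1, -4.50 ± 0.56 on day 5, -3.23 ± 0.40 on day 8, -4.42 ± 0.61 after PBS and -3.48 ± 0.32 after aGr1. It was -3.88 ± 0.53 and -2.18 ± 0.32 in TSLPR KO skin on days 8 and 12 and -4.97 ± 0.31 in BLT1 KO skin, with adjusted p from 2.26e-05 to 0.0155 in edgeR. The shared receptor chain gene Il20rb fell on days 1 (-0.96 ± 0.14), 5 (-1.26 ± 0.26) and 8 (-0.58 ± 0.12), after aGr1 (-1.0 ± 0.19) and in BLT1 KO skin (-1.46 ± 0.18). Both chains of the receptor for IL-19, the products of Il20ra and Il20rb, were thus lower at the RNA level on WT days 5 and 8.

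**Figure D4:**
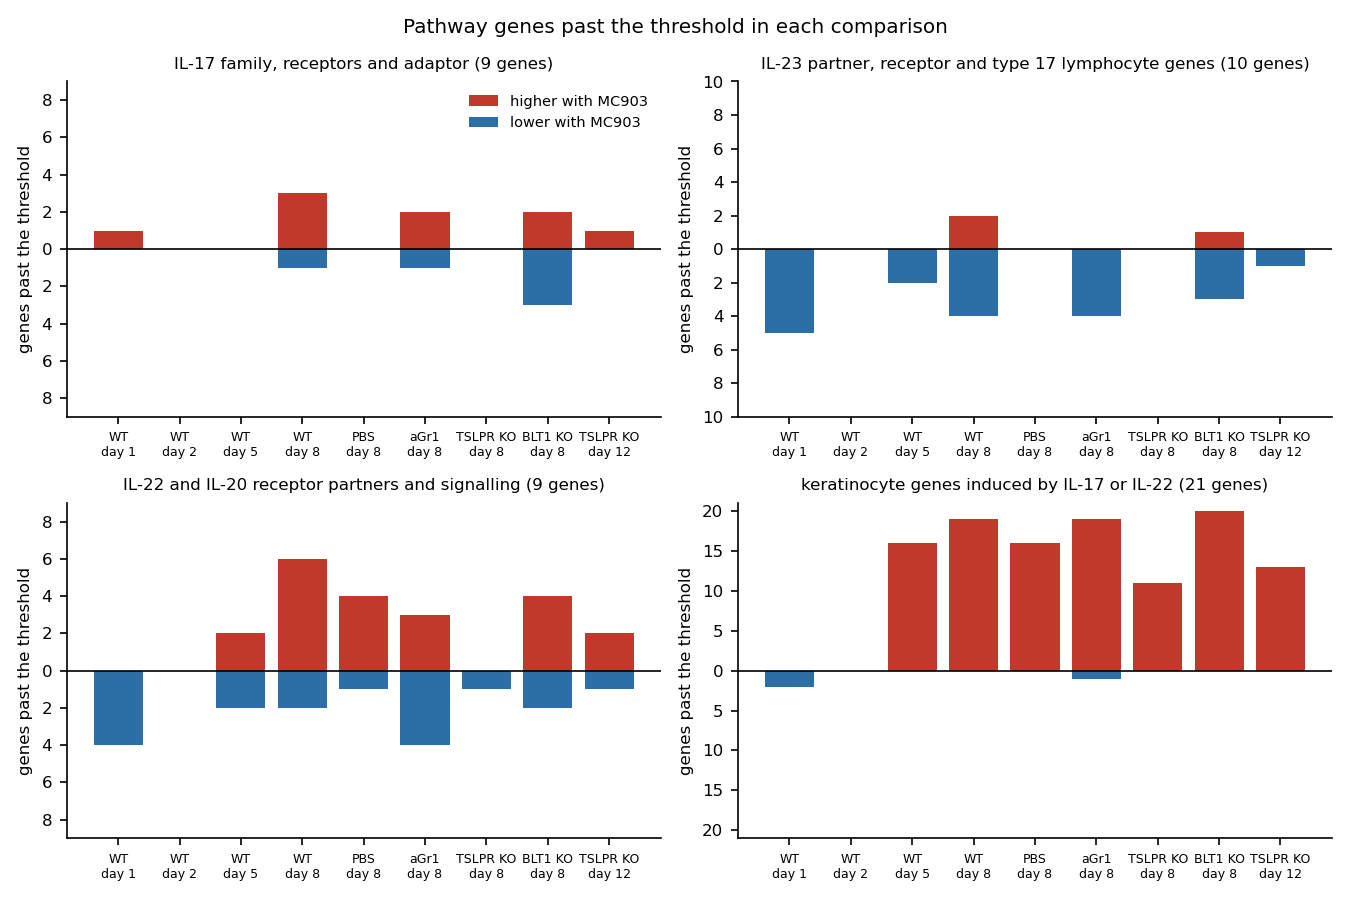
Number of genes past the adjusted p threshold of 0.05 in each of the 4 pathway lists (panels), as bars upward from 0 for genes higher with MC903 and downward for genes lower, in each of the 9 comparisons. The list of 21 keratinocyte genes holds 19 higher genes on WT day 8 and 20 in BLT1 KO skin. It holds none on day 2, when edgeR called no gene of any kind.

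The fourth list held 21 keratinocyte genes that IL-17 or IL-22 can induce, antimicrobial peptides, chemokines and keratins of thickened epidermis among them. On day 1 none rose and 2 of the 18 tested fell (7.47% of all genes fell). On day 2, when edgeR called no gene, the 19 tested had a median log2 fold change of 1.515 (all genes 0.086). Cyp24a1 was at 8.005 ± 1.11 in that fit, with an adjusted p of 0.172 in edgeR, so the start of the rise cannot be placed. By day 5, 16 rose (8.15% of all genes did), with a median log2 fold change of 3.61 (all genes -0.03), and on WT day 8, 19 rose (12.2%), with a median of 4.47 (all genes -0.03). The keratin genes had the smallest p-values of the list on WT day 8: Krt6b rose by 5.50 ± 0.21 (adjusted p = 4.77e-09 in edgeR), Krt6a by 4.43 ± 0.20 and Krt16 by 4.47 ± 0.20 on the log2 scale, the latter values being close to the median of the list. Krt6a and Krt6b are close copies, and how reads were split between them is uncertain. After PBS 16 rose (3.26% of all genes did), and after aGr1 19 rose (15.1%) and 1 fell (17.5%). In TSLPR KO skin 11 rose on day 8 (1.3%) and 13 on day 12 (5.41%), and in BLT1 KO skin 20 rose (14.1%). The effect of MC903 differed from that in uninjected WT skin for some of the 21. For aGr1 3 were higher, among them Krt6b (1.465 ± 0.30, adjusted p = 0.0112 in edgeR), and 0 lower (4.56% of all genes passed). For BLT1 KO 3 were higher and 1 lower (6.95%), and for TSLPR KO none passed (0.177%). Saa3, an acute phase gene, rose after PBS (7.61 ± 0.30), after aGr1 (7.14 ± 0.34) and in BLT1 KO skin (7.80 ± 0.22). It also rose in TSLPR KO skin on day 8 (7.09 ± 0.63) and day 12 (5.90 ± 0.49). In BLT1 KO skin the chemokine gene Cxcl5 rose by 7.81 ± 0.36. In this list S100a8 and S100a9 are also abundant in neutrophils, and other stimuli can induce its members.

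Markers of cells that could make or receive these cytokines moved in the same skin. Of all genes, 12.2% rose and 11.2% fell on WT day 8, and 15.1% rose and 17.5% fell after aGr1. On WT day 8 5 T cell markers of 8 rose and 2 fell, with a summed level of 45.3 to 67.7 CPM with MC903 and 27.1 to 39.9 CPM with ethanol, and 4 of 5 tested γδ T cell markers fell, with sums of 1.22 to 2.98 CPM and 4.34 to 11.8 CPM. Of 10 neutrophil markers 7 rose, with sums of 93.5 to 550 CPM against 14.7 to 34.5 CPM. Of 7 macrophage and dendritic cell markers 3 rose and 1 fell, with overlapping sums of 352 to 644 CPM and 257 to 609 CPM. The keratinocyte markers summed to 12263 to 23374 CPM against 6561 to 8854 CPM, with 3 of 8 higher and 3 lower. All 4 skeletal muscle markers fell, from 2802 to 13196 CPM with ethanol to 1518 to 3003 CPM with MC903. After aGr1 all 9 tested of the 10 neutrophil markers rose, with sums of 303 to 356 CPM against 15.6 to 32.7 CPM, S100a8 and S100a9 included. The study, counting cells and not RNA, reported fewer neutrophils in skin and blood of MC903-treated mice given aGr1. Of the T cell markers 4 of 8 fell after aGr1 and 0 rose (median log2 fold change -1.78, all genes -0.02), with sums of 44.3 to 52 CPM against 22.1 to 120 CPM. Of the macrophage and dendritic cell markers 1 rose and 2 fell after aGr1. In the test of aGr1 against WT skin 2 of these 7 were lower (4.56% of all genes passed). None of these marker lists was at 0 in the treated skin, and their part in the changes of Il19, Il24, Il23a and Il20ra was not tested.

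The genes outside the set whose group means were most like those of a member, among 14606 protein-coding genes with a mean of at least 1 CPM, were found by Pearson's r over the 18 group means of log2(CPM + 0.5). For Il19 they were Ccl4 (0.986), Osm (0.977) and Plaur (0.976), and for Il24 P4ha3 (0.975), Nts (0.967) and Gsdmc4 (0.963). For Il23a they were Nod2 (0.935), Ccl2 (0.932) and Rgs1 (0.919), and for Il20 Ptges2 (0.904), Amz1 (0.867) and Dusp1 (0.857). For Il20ra they were Rhobtb1 (0.9), Slc4a8 (0.892) and Nat8f6 (0.891), and for Il22ra1 Arhgap23 (0.906), Adgrf2 (0.9) and Dcxr (0.897). For Il17f they were Slc16a11 (0.85), Gm6710 (0.848) and Gm14288 (0.845). The groups share treatment, day and sequencing, so these values describe likeness only.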

How the data were processed

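RNA sequencing of skin, trigeminal ganglion and spinal cord gave 162 libraries, of which 61 skin libraries entered the comparisons and the 9 skin libraries labelled WT day 12 did not. The deposited values are raw read counts per Ensembl gene, made by the authors with TopHat2, Bowtie2 and HTSeq on mm10, with no normalization and versions not given in the sources used here. Reads on no gene or on several made up 9.88 to 20.52% of a library and were left out. Symbols and coordinates came from GENCODE M21 (GRCm38, 45229 of 46078 genes with a symbol) and promoter windows from RefSeq (GRCm38.p6).

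CPM were computed on the total counts on genes, without further scaling. Each comparison was fitted on its own libraries with edgeR 4.0.16 (R 4.3.3), TMM scaling, a minimum of 10 counts in total and the quasi-likelihood F test, with cohort as a term on WT day 8, and 3 further fits tested the difference in MC903 effect from WT day 8. Folds that rest on a group with few reads are pooled ratios with an exact 95% interval, which cover counting error only because reads carry no molecular identifiers. Members at or under 3 counts in a library counted as undetected there. The named genes were all 10 members, up to 3 genes a direction of each list with the smallest p, the knockout and treatment checks and the 3 nearest patterns. The values of 1 gene named by this rule are not reported here. The alternatives were DESeq2 1.42.0, size factor (RLE) scaling, other filters, a replicate block, each library left out, the cohorts alone and 1 fit over the WT days. The fits were tested on simulated data. No replicate libraries were identical in 82 pairs compared. The members and the lists were chosen with earlier results of these data known.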

Additional observations from a re-analysis of the deposited data

Results flagged for a closer look

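Samples far from the rest of their group were sought in 48 groups of 4 to 10 libraries with Dixon's test, and 3 stood out, where chance gives about 1 in 20. Il17c was at 0.173 CPM (6 counts) in a WT day 8 MC903 library of cohort A, above the 0 to 0.0277 CPM of the other 4. Il23a was at 0.153 CPM (5 counts) in a WT day 8 ethanol library of cohort A, above the 0 to 0.0537 CPM of the other 5. Il19 was at 0.0869 CPM (2 counts) in WT day 1 ethanol replicate 4, below the 0.225 to 0.230 CPM of the other 3.

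The libraries labelled WT day 12, which no comparison used, also held Il19 and Il24. Among those labelled trigeminal ganglion and MC903, Il19 was at 19.2, 22.6 and 5.6 CPM in replicates 1 to 3 and 0.529 CPM in replicate 5, and Il24 at 16.9, 14.3, 6.52 and 0.0588 CPM. Replicates 1 to 3 also held 4308 to 7094 CPM of Cyp24a1. Among those labelled skin and ethanol, Il19 was at 6.84 and 27.6 CPM in replicates 2 and 5 and Il24 at 6.5 and 18.9 CPM, with Cyp24a1 at 7459 and 5258 CPM. In 6 of the 9 libraries labelled skin, the sensory neuron gene Scn10a was at 789 to 1018 CPM and the keratinocyte gene Krt14 at 0.471 to 1.12 CPM, and in 6 of the 9 labelled trigeminal ganglion Krt14 was at least 1372 CPM with Scn10a at no more than 0.0604 CPM. The labels of this day thus went against the marker genes, and no direction was drawn from them.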

How the results depend on the processing

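Of the log2 fold changes past the threshold, none changed sign under any alternative run; 130 kept their call and 4 lost it under other settings, and 155 kept it and 11 lost it with 1 library left out. The number of members called on WT day 1 went from 1 to 0 in 1 fit over the WT days and was 0 or 1 with a library left out. On day 2 it went from 0 to 1 (Il24) with DESeq2, the replicate block and 1 fit over the WT days, and was 0 to 1 with a library left out. In TSLPR KO skin on day 8 it was 1 to 3 with a library left out, 1 (Il19) without MC903 replicate 1. For BLT1 KO against WT it went from 0 to 1 (Il20ra) with DESeq2, with no filter and with the replicate block, and was 0 to 1 (Il20ra or Il22ra1) with a library left out.

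Fold changes that changed sign were all below the threshold. Il23a went to -1.24 for aGr1 against WT with cohort B alone as the wild type and to 0.83 for BLT1 KO against WT with the replicate block. With a library left out, the log2 values ran from -1.44 to 0.13 for Il19 and from -2.05 to 0.05 for Il24 (aGr1 against WT), from -0.93 to 0.00 for Il24 (BLT1 KO against WT) and from -0.94 to 0.32 for Il20 (BLT1 KO day 8). Those of Il23a ran from -0.96 to 0.23 on day 1 and, against WT, from -0.38 to 1.27 (aGr1), -2.99 to 0.08 (TSLPR KO) and -0.95 to 4.90 (BLT1 KO). The causes were not tested.

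Counts over all genes moved more. Day 1 gave 3213 genes, 1795 with the replicate block and 460 in 1 fit over the WT days, and day 2 gave 0, 280 with DESeq2, 27 without the filter, 876 with the block and 995 in 1 fit. PBS gave 973, 2116 with DESeq2 and 640 with the block, TSLPR KO day 8 gave 593, 1313 with DESeq2, 1401 without the filter and 1272 with the block, and TSLPR KO day 12 gave 2550, 4040 with DESeq2 and 548 with the block. WT day 8 gave 6125 and 2258 in cohort B alone. The differences from WT gave 1268 for aGr1 (2515 with DESeq2, 747 with the block, 447 with cohort B alone, 62 with PBS as the control), 48 for TSLPR KO (559, 1 and 5, and 100 without the filter) and 1924 for BLT1 KO (3155 with DESeq2, 1010 with cohort B alone). Libraries with the same number did not deviate together in every pair (mean r from -0.44 to 0.197 by comparison), so the numbers were not taken as pairs. Under the block Il20ra lost its call in TSLPR KO skin on day 12 (adjusted p = 0.122), and no other call of a member was lost. After aGr1 the filterByExpr setting left Il23a untested. Depth limits Il17a, Il22 and Il17c most.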

Other observations

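Outside skin, and leaving out WT day 12, Il19 and Il24 were nearly absent. In trigeminal ganglia Il24 had 3 counts or fewer in 28 of 29 MC903 and 27 of 27 ethanol libraries, and Il19 in 29 of 29 and 25 of 27, with at most 11 counts. The receptor genes were low there, with at most 50 counts of Il22ra1 and 12 of Il20ra. In spinal cord Il24 had no count in any of the 27 libraries and Il19 at most 8 counts, whereas Il20ra was above 3 counts in all 27, with a median of 0.857 CPM after MC903 and 0.830 CPM after ethanol on the back skin. One WT day 1 trigeminal library from an MC903 mouse held 21 counts each of Il22 and Il23a.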
